A study of Mus musculus with 27 samples.

Results

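The 10 genes described here, Sox2, Trp63, Trp73, Pax9, Klf4, Foxa1, Foxa2, Foxe1, Nkx2-1 and Barx1, encode transcription factors known from the foregut and from stratified squamous epithelium, and were read in the developing mouse esophagus. They were chosen by name: every array probe whose gene name is one of the 10 was taken, which gave 14 of 41174 probes and 10 of 27805 genes. RNA of each esophagus was labelled with Cy5 and hybridised to an Agilent array against Universal Mouse Reference RNA, pooled from 11 cell lines and labelled with Cy3, on 27 arrays in 9 groups of 3. Whole esophagi came from wild-type C57BL/6J mice on embryonic days E11.5 and E15.5, at birth (P0) and a week later (P7), and at P7 also from Nrf2-/-, Keap1-/- and Nrf2-/-Keap1-/- mice on the C57BL/6J background. Esophageal epithelium came from wild-type and Nrf2-/- adults aged 8 weeks. The knockouts are germline alleles, present in every cell of the mouse, and each sample was 1 esophagus. All values below are log2 ratios of Cy5 to Cy3, so 1 unit is a doubling relative to the reference RNA. A ratio can be set against the same gene in another group, but not against another gene.

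The foregut tube gives rise to the trachea and lung on its ventral side and to the esophagus and stomach on its dorsal side. Sox2 marks the dorsal tube and Nkx2-1 the ventral tube, and the 2 factors oppose each other. p63, encoded by Trp63, sets up and maintains the basal layer of stratified epithelia, and its relative p73 is encoded by Trp73. Pax9 acts in pharyngeal, oral and esophageal epithelium, and Klf4 in squamous differentiation above the basal layer. Foxa1 and Foxa2 are pioneer factors of the endoderm, Foxe1 is best known from the thyroid and the oral and esophageal epithelium, and Barx1 acts in the mesenchyme of the stomach and esophagus. Nrf2, which Keap1 holds back, drives antioxidant genes and, when Keap1 is lost, hyperkeratosis of the esophagus.

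Nkx2-1, Pax9 and Foxa1 lie near each other on chromosome 12 (GRCm38.p6, 56531935 to 56536908, 56691693 to 56712824 and 57540628 to 57548029). Promoters were read from RefSeq (GRCm38.p6) as the 250 bases before an annotated start, 11 windows for 8 of the 10 genes. They were searched on both strands for the antioxidant response element bound by Nrf2 (TGACNNNGC, in 10.2% of 32851 promoters of all genes), a forkhead motif (GTAAACA, 3.17%), a SOX motif (ACAATG, in 3512 of them) and a KLF motif (CCACCC, 28.1%). The forkhead and SOX motifs can share the letters ACA, but no match in these windows overlapped another motif. The 4 windows shown hold 1 match to 1 motif each, in capitals, and are written 5′ to 3′ on the strand of the gene. A match is a run of letters and not a bound site.
Trp73, start inside the gene, chr4:154097174-154097423, minus strand, antioxidant response element: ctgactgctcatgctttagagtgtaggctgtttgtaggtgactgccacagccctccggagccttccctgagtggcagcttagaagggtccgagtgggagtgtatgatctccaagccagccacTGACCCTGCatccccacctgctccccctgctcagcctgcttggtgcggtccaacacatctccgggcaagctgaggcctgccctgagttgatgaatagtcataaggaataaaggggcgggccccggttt
Foxa1, start inside the gene, chr12:57546112-57546361, minus strand, forkhead motif: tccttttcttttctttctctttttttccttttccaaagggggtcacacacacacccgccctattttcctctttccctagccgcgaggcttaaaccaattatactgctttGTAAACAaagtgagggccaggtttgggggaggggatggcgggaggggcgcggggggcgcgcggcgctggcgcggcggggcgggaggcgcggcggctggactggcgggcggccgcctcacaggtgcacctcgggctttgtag
Pax9, start inside the gene, chr12:56695221-56695470, plus strand, SOX motif: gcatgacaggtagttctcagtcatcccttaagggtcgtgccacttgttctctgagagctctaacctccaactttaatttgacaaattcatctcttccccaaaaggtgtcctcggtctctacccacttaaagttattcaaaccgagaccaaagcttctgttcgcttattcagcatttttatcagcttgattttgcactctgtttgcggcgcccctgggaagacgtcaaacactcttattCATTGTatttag
Barx1, start of the gene, chr13:48662786-48663035, plus strand, KLF motif: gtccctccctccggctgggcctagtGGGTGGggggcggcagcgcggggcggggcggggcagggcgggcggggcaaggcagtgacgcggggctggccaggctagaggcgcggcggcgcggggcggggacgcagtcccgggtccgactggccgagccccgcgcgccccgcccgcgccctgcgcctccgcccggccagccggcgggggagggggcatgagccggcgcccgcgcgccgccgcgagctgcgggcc
The element of Trp73 reads TGACCCTGC and lies 128 to 120 bases before that start, the forkhead letters of Foxa1 lie 141 to 135 bases before its start, and the SOX letters of Pax9, CATTGT on this strand, 12 to 7 bases before its start. The KLF letters, GGGTGG on this strand, were found in 4 of the 11 windows, 1 of Barx1, 2 of Foxa2 and 1 at the upstream start of Trp73. Barx1 carries them 225 to 220 bases before its start.

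Array facts that touch the results were as follows. Median Cy5 intensity ranged from 81.8 to 226, and 58.9% to 69.3% of spots were well above background in Cy5. The 3 Keap1-/- arrays sat alone on 1 slide and in 1 scan, with a software version that no other P7 array had. Their median Cy3 intensity was 115 to 147 against 223 to 386 elsewhere. Slide, scan, software version and genotype therefore cannot be told apart there. The probe of Nfe2l2, the gene of Nrf2, was lower by 3.63 in Nrf2-/- and by 3.86 in Nrf2-/-Keap1-/- esophagus at P7 and by 4.30 in Nrf2-/- adults (adjusted p = 2.36e-07, 1.47e-07 and 0.000534). The Keap1 probe was not called in Keap1-/- (-0.45, adjusted p = 0.144) or Nrf2-/-Keap1-/- esophagus (-0.99, adjusted p = 0.0792). There were 2 embryo arrays that went against their labels, called the conflicting arrays below. Over 18453 genes, Pearson's r of the array labelled E11.5 replicate 3 was 0.982 and 0.977 with E15.5 replicates 2 and 3 and 0.831 and 0.773 with its own group. For the array labelled E15.5 replicate 1, r was 0.958 and 0.929 with E11.5 replicates 1 and 2 and 0.803 and 0.812 with its own group. Both were kept under their labels, and the main results that rest on them are given with and without them. Without them, E11.5 replicates 1 and 2 stand against E15.5 replicates 2 and 3. Those arrays were chosen by expression, so the fit favours a difference between the 2 stages. Its adjusted p and counts are descriptions and not independent tests. Markers of esophageal epithelium, 8 genes, averaged -0.02, 0.13 and 2.63 at E11.5 and -0.01, 2.66 and 2.61 at E15.5, in order of replicate. They averaged at least 3.61 on every array from P0 on.

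**Figure D1:**
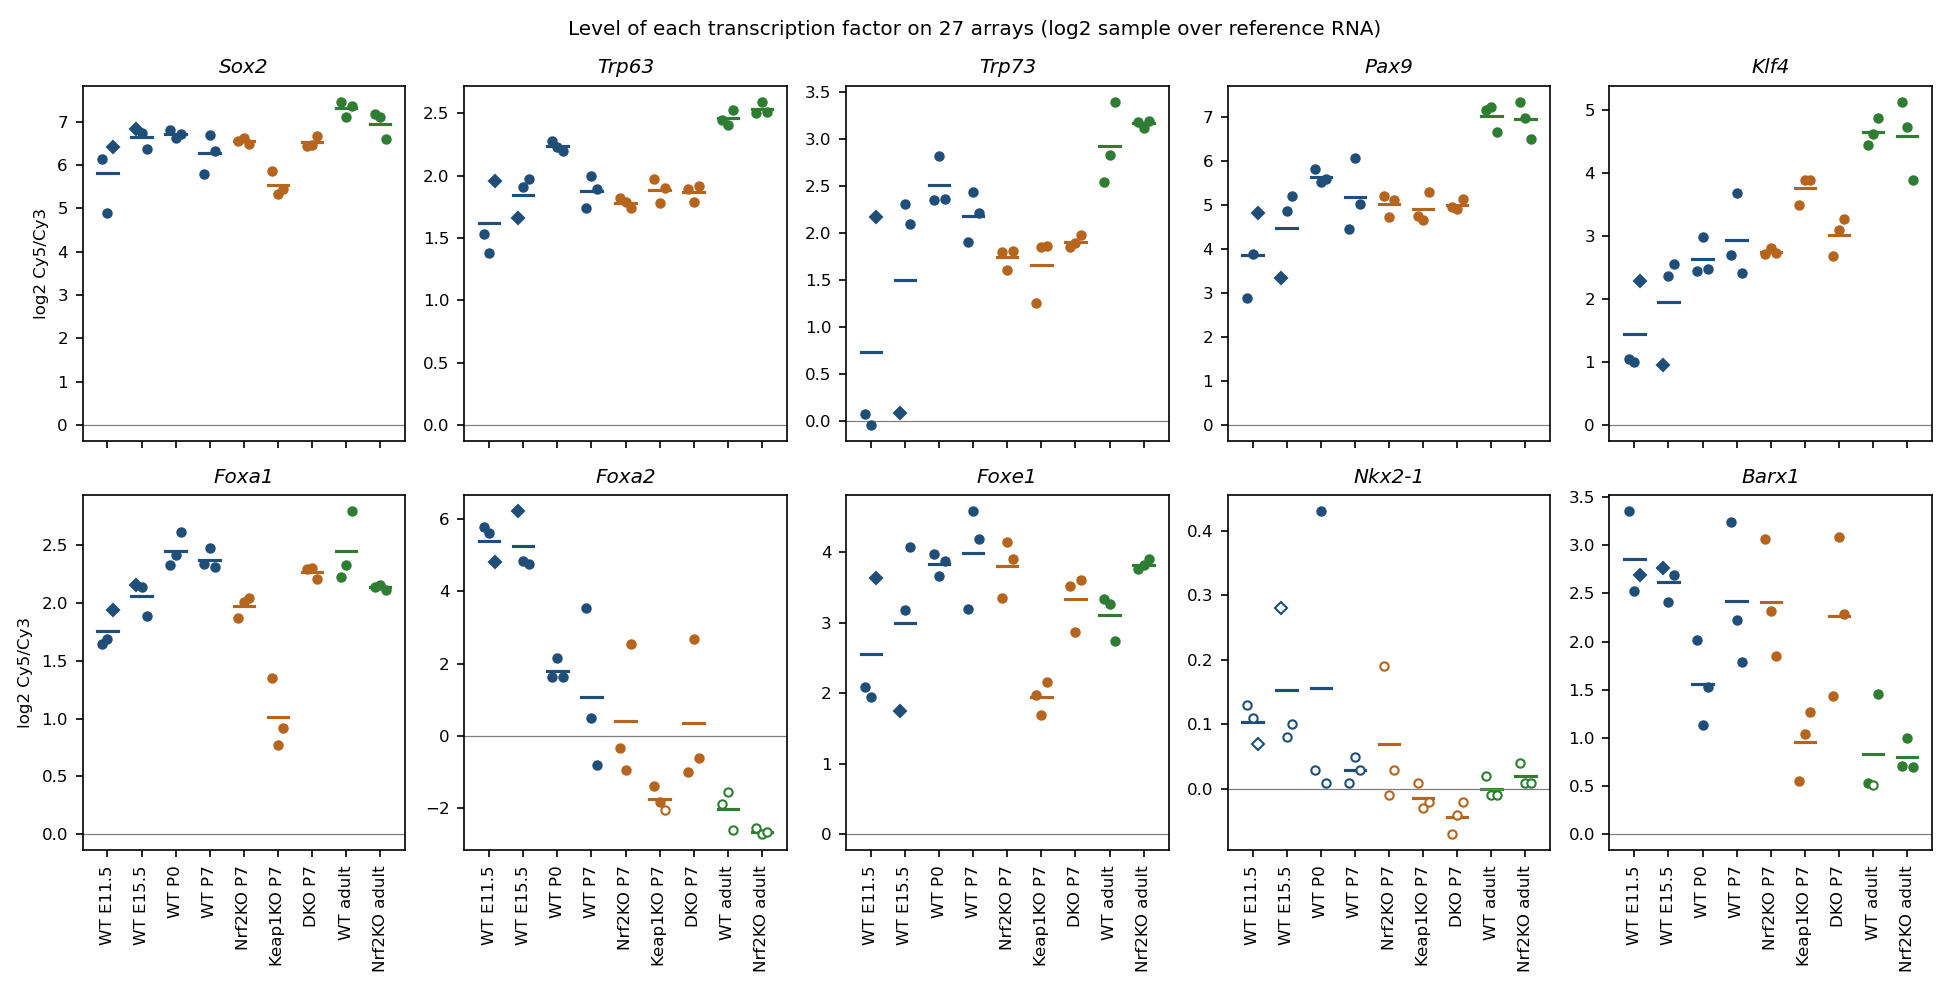
Log2 Cy5/Cy3 of the 10 transcription factors (vertical axes, 1 panel per gene, each with its own range) in the 9 groups (WT, wild type; Nrf2KO, Nrf2-/-; Keap1KO, Keap1-/-; DKO, Nrf2-/-Keap1-/-). Each point is 1 array, bars are means of 3 arrays, open points were not well above background in Cy5, and diamonds are the 2 conflicting embryo arrays. Foxa2 ran from 6.20 in the embryo down to -2.71 in the adult, and Nkx2-1 stayed between -0.07 and 0.43.

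Among the 10 genes, 7 had a probe well above background on each of the 27 arrays, Barx1 on 26, Foxa2 on 20 and Nkx2-1 on 1. From E11.5 to P7, when the simple columnar lining becomes a keratinised squamous one, Foxa2 fell 19.8-fold while Foxa1 and Klf4 rose 1.54-fold and 2.82-fold. Without the 2 conflicting arrays, which were set aside by their own expression, Trp63, Trp73, Pax9 and Foxe1 rose as well. A change was called at 0.05 or lower for limma's p, adjusted by Benjamini-Hochberg over all genes tested.

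Sox2 stood well above the reference at every stage. It read 6.13, 4.90 and 6.42 at E11.5, 6.84, 6.73 and 6.36 at E15.5, 6.81, 6.63 and 6.71 at P0 and 5.79, 6.69 and 6.32 at P7. Neighbouring stages overlapped, and no step was called (E11.5 to E15.5, 0.83 ± 0.35 SE, adjusted p = 0.996). Across the 4 stages the moderated F-test of limma gave Sox2 an adjusted p of 0.189.

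Trp63 averaged 1.62 ± 0.30 (SD, n = 3) at E11.5, 1.85 ± 0.17 at E15.5, 2.24 ± 0.04 at P0 and 1.88 ± 0.13 at P7. All P0 arrays (2.28, 2.23 and 2.20) lay above all arrays of the other 3 stages, yet neither the step into P0 (0.39 ± 0.15 SE, adjusted p = 0.101) nor the step out of it (-0.36 ± 0.15 SE, adjusted p = 0.313) passed.

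Trp73 showed the disagreement of the embryo arrays most plainly. It read 0.08 and -0.04 on E11.5 replicates 1 and 2 but 2.17 on the array labelled replicate 3, and 2.31 and 2.09 on E15.5 replicates 2 and 3 but 0.09 on the array labelled replicate 1. With all arrays the change from E11.5 to E15.5 was 0.76 ± 0.64 (SE, adjusted p = 0.996). Without both it was 2.18 ± 0.21 (adjusted p = 0.000208), in a fit of arrays chosen by expression, which favours such a difference. Trp73 then read 2.35, 2.82 and 2.36 at P0 and 1.90, 2.44 and 2.21 at P7.

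Pax9 read 2.89, 3.88 and 4.81 at E11.5 and 3.34, 4.87 and 5.20 at E15.5, against 5.82, 5.52 and 5.60 at P0 and 4.46, 6.06 and 5.03 at P7. Every P0 array exceeded every E15.5 array, but the step was not called (1.17 ± 0.58 SE, adjusted p = 0.182, and 0.61 without the conflicting arrays, adjusted p = 0.368). Klf4 read 1.04, 1.00 and 2.29 at E11.5, 0.95, 2.36 and 2.55 at E15.5, 2.45, 2.98 and 2.48 at P0 and 2.70, 3.69 and 2.41 at P7. Its 3 P7 arrays lay above its 3 E11.5 arrays, and the rise of 1.49 ± 0.49 (SE) was called with an adjusted p of 0.0407. That call was lost in 7 of 12 refits that each left out 1 array, those without E11.5 replicate 1 or 2, any P0 array, or P7 replicate 1 or 2 (adjusted p = 0.0529 to 0.138).

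Foxa2 had the widest range of the 10 genes. It read 5.78, 5.60 and 4.80 at E11.5 and 6.20, 4.82 and 4.75 at E15.5, then 1.62, 2.16 and 1.63 at P0 and 3.54, 0.51 and -0.79 at P7. The embryo and postnatal arrays did not overlap. Foxa2 fell by 3.45 (SE 0.87, adjusted p = 0.0197) from E15.5 to P0 and by 4.31 (SE 0.87, adjusted p = 0.00489) from E11.5 to P7. The first call was lost without the array labelled E15.5 replicate 1 (-2.98, adjusted p = 0.0699) and without P0 replicate 1, 2 or 3 (adjusted p = 0.0621, 0.0501 and 0.0636), and was -2.98 with an adjusted p of 0.0582 without both conflicting arrays. The second call held in all of these refits.

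Foxa1 moved little but evenly, from 1.64, 1.69 and 1.94 at E11.5 through 2.15, 2.14 and 1.89 at E15.5 to 2.33, 2.41 and 2.61 at P0 and 2.34, 2.47 and 2.31 at P7. The P0 and P7 arrays lay above every embryo array, and the rise from E11.5 to P7 was 0.62 ± 0.13 (SE, adjusted p = 0.00481). That call was lost with median centring (0.40, adjusted p = 0.091) and own local background (0.80, adjusted p = 0.128). The step from E15.5 to P0 was 0.39 (adjusted p = 0.0521) and, without the conflicting arrays, was called (0.43, adjusted p = 0.0417). Foxe1 read 2.09, 1.95 and 3.64 at E11.5, 1.75, 3.18 and 4.08 at E15.5, 3.97, 3.66 and 3.88 at P0 and 3.19, 4.58 and 4.19 at P7, a change of 1.43 ± 0.60 (SE) from E11.5 to P7 that was not called (adjusted p = 0.0969).

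Nkx2-1, the ventral and lung factor, was well above background in Cy5 only on P0 replicate 2, at 0.43, and in Cy3 on no array, so its ratios give no level. It was not tested. Markers of respiratory epithelium and lung, 12 genes, averaged 0.64 to 1.62 on the P0 arrays and -0.35 to 0.52 on all others, with 8 to 10 of 12 well above background at P0 and 4 to 9 on the other arrays. Of them Sftpd, a surfactant protein, rose by 4.05, Scgb3a1 by 3.60, Scgb3a2 by 3.53 and Sftpc by 1.97 from E15.5 to P0 (adjusted p = 0.000223, 0.00105, 0.0471 and 0.0249). Their part in the P0 values was not tested.

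Barx1, the mesenchymal factor, read 3.35, 2.52 and 2.69 at E11.5, 2.76, 2.41 and 2.69 at E15.5, 2.02, 1.13 and 1.53 at P0 and 3.24, 2.22 and 1.79 at P7. The P0 arrays lay below every embryo array, with a change of -1.06 ± 0.36 (SE) from E15.5 that missed the threshold (adjusted p = 0.0639) and passed it without P7 replicate 1 (0.026) or replicate 3 (0.048). As these are whole organs, fewer cells of a type and less RNA per cell cannot be told apart for this or any other gene.

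Counted over all stages, the F-test called 2 of 9 tested genes, Foxa1 and Foxa2, against 30.2% of all 19487 genes tested. The first step, E11.5 to E15.5, gave 0 calls by limma among the 9 and 0 among all genes (0%), with 2 of the 9 and 321 of all at an unadjusted p under 0.05. From E15.5 to P0 the count was 1 of 9 (19.9% of all genes), from P0 to P7 0 of 9 with 2 at an unadjusted p under 0.05 (2.44%), and from E11.5 to P7 3 of 9 (30.3%). No count stood apart from its background.

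Without both conflicting arrays 5 of 9 were called at the first step, where 13.7% of all genes were. As the arrays left were chosen by expression, more calls at that step were to be had in advance, and these counts are descriptions. Trp73, Foxe1 (1.61 ± 0.42 SE, adjusted p = 0.033), Klf4 (1.43 ± 0.36, 0.0294), Pax9 (1.65 ± 0.47, 0.0469) and Trp63 (0.49 ± 0.12, 0.0318) then rose from E11.5 to E15.5. From E11.5 to P7, 7 of 9 were called (40.7% of all genes): Trp73 by 2.16, Foxe1 by 1.97, Klf4 by 1.91, Pax9 by 1.80, Foxa1 by 0.71 and Trp63 by 0.42 upward, and Foxa2 downward (-4.61, adjusted p = 0.00449). Sox2 (0.75, adjusted p = 0.118) and Barx1 (-0.52, adjusted p = 0.364) were not. Without the array labelled E11.5 replicate 3 alone the count was 7 too.

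**Figure D2:**
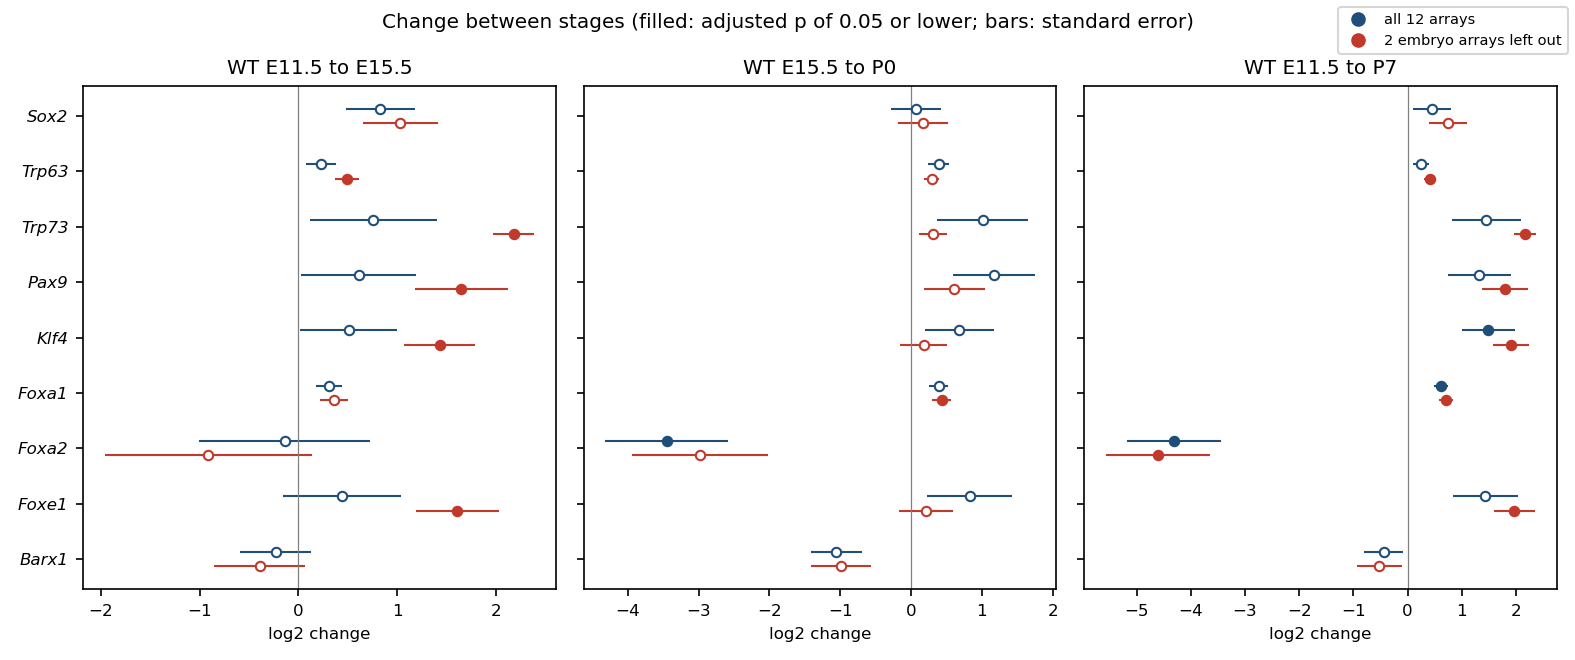
Log2 change (horizontal axis) of the 9 tested transcription factors between wild-type stages, with all 12 arrays (blue) and without the 2 conflicting embryo arrays (red). Bars are standard errors and filled points have an adjusted p of 0.05 or lower; from E11.5 to E15.5 no gene is filled with all arrays and 5 are filled without both.

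Between P7 and adult, 7 of the 9 tested genes changed, where 43.1% of all 17833 genes tested did. Among the 7, Foxa2 was tested only through its P7 arrays, where it was high. The adult samples were epithelium and the P7 samples whole esophagus, so age and tissue cannot be told apart. The squamous factors Pax9, Klf4, Sox2, Trp73 and Trp63 rose and Foxa2 and Barx1 fell, although Sox2, Trp73 and Trp63 took the opposite sign with each spot's own local background and Barx1 with the scanner software's processed signals. Foxa1 and Foxe1 were not called. Beside this, all 10 striated muscle markers fell (0.88 to 1.57 on adult arrays against 4.02 to 4.76 at P7), as did 5 of 8 smooth muscle markers and all 6 tested markers of enteric neurons and glia, none of which was tested for its part in the change.

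Pax9 rose from 4.46, 6.06 and 5.03 to 7.17, 7.24 and 6.65, a gain of 1.84 ± 0.39 (SE, adjusted p = 0.00746). Klf4 rose from 2.70, 3.69 and 2.41 to 4.45, 4.63 and 4.88 (1.71 ± 0.32, adjusted p = 0.0043). In both genes every adult array lay above every P7 array. With each spot's own local background, the gain of Pax9 was only 0.14 (adjusted p = 0.925), and with scale normalisation between arrays it was 1.05 (adjusted p = 0.151), while that of Klf4 was called under the 17 alternatives that could test it and without any 1 array.

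Sox2 rose from 5.79, 6.69 and 6.32 to 7.45, 7.10 and 7.37 (1.04 ± 0.23 SE, adjusted p = 0.00978), Trp63 from 1.74, 2.00 and 1.89 to 2.45, 2.41 and 2.53 (0.59 ± 0.12, adjusted p = 0.00683) and Trp73 from 1.90, 2.44 and 2.21 to 2.54, 2.83 and 3.39 (0.74 ± 0.24, adjusted p = 0.0416), but with each spot's own local background all 3 changes took the opposite sign (-1.44, -0.18 and -0.83, none called). The Sox2 call was also lost with processed signals (0.64, adjusted p = 0.14) and scale normalisation (0.13, adjusted p = 0.75). Again the ages did not overlap in these values. The Trp73 call was lost without P7 replicate 1 (adjusted p = 0.124) or 3 (0.0875) and without adult replicate 2 (0.084) or 3 (0.0913).

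Foxa2 was not well above background on any adult array, reading -1.87, -1.55 and -2.60. Its mean log2 Cy5 was 9.90 at P7 and 6.89 in the adult. Each adult array was given the higher of its own Foxa2 signal and the dimmest signal still well above background. On that reading the adult mean was 7.93-fold lower. This fold does not allow for the spread of the P7 arrays and is open to dye bias without swapped dyes. Without P7 replicate 1, where Foxa2 was 3.54 and stomach markers were high, the fold was 3.40, and the test could not be made without any 1 P7 array. The fitted change was -3.09 ± 0.98 (SE, adjusted p = 0.037). Foxa2 was tested only because its 3 P7 arrays were well above background, so this call is no separate support for the fall. The call was lost without any 1 of the adult arrays (adjusted p = 0.0719 to 0.105) and with each spot's own local background (-1.77, adjusted p = 0.28). Barx1 fell from 3.24, 2.22 and 1.79 to 0.53, 0.51 and 1.46 (-1.59 ± 0.41, adjusted p = 0.0168), but its change was 0.30 under the scanner software's own processed signals and deposited ratios. The Cy3 signal of the Barx1 probe was not well above background on any adult array. With the Cy5 channel alone, taken after normalisation together with Cy3, the change was -2.48 ± 0.62 (adjusted p = 0.0164). Without adult replicate 1 or 2 the adjusted p of Barx1 was 0.0634 or 0.0603.

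Foxe1 read 3.34, 3.26 and 2.74 in the adult, a change of -0.87 ± 0.35 (SE, adjusted p = 0.081) that passed without P7 replicate 1 (-1.27, adjusted p = 0.00664). Foxa1 read 2.22, 2.33 and 2.79, within 0.07 ± 0.17 of P7 (95% interval -0.32 to 0.46). Within the 1 scan that held both ages, 3 P7 and 2 adult arrays, the differences were 2.03 for Pax9, 1.60 for Klf4, 1.01 for Sox2, 0.55 for Trp63, 0.50 for Trp73, -2.80 for Foxa2 and -1.90 for Barx1.

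**Figure D3:**
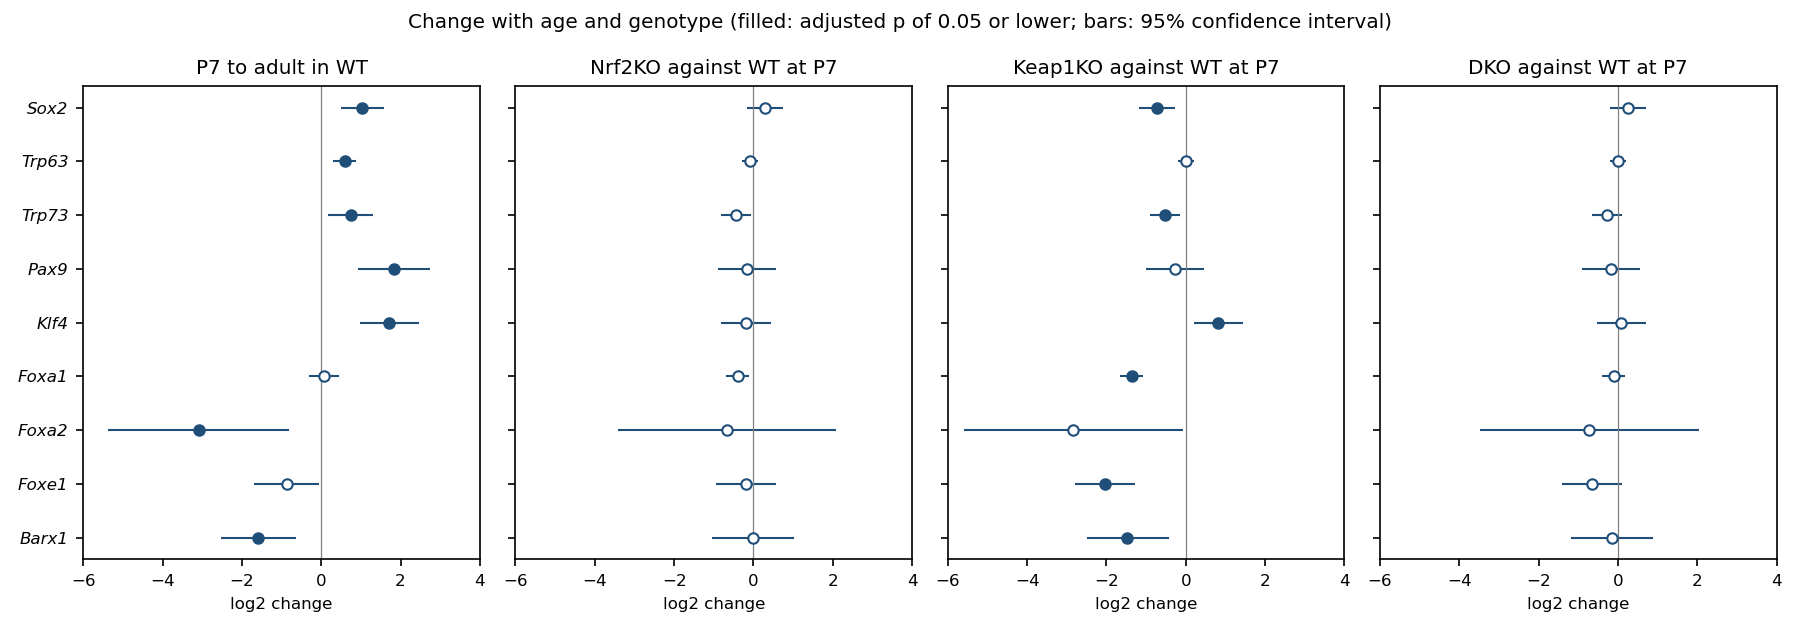
Log2 change (horizontal axes) of the 9 tested transcription factors from P7 to adult in wild type, and in Nrf2-/- (Nrf2KO), Keap1-/- (Keap1KO) and Nrf2-/-Keap1-/- (DKO) esophagus against wild type at P7. Bars are 95% confidence intervals and filled points have an adjusted p of 0.05 or lower. With age 7 genes are filled, among them Foxa2, which was tested only through its P7 arrays. In Keap1-/- 6 are filled, and none in the other 2 genotypes.

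At P7, loss of Keap1 came with a shift in 6 of the 9 tested genes (33.4% of all 18866 genes tested). The endodermal factors Foxa1 and Foxe1, the mesenchymal Barx1, and Sox2 and Trp73 were lower and Klf4 was higher, although Foxe1, Barx1 and Trp73 took the opposite sign with the processed signals and Sox2 differed by 0.01 with the Cy5 channel alone. Trp63 and Pax9 were not called, with differences of 0.01 (95% interval -0.19 to 0.21) and -0.28 (-1.01 to 0.46), though with Cy5 alone Trp63 was higher by 0.40 (adjusted p = 0.0141). The Trp63 value averaged probes that went opposite ways, and A_52_P360130 and A_52_P338796 were not well above background on any P7 array. From wild-type to Keap1-/- esophagus, A_51_P216550 went from 6.20 to 6.45 and A_52_P17264 from 1.04 to 0.79. With the brightest probe alone, A_51_P216550, Trp63 differed by 0.25 ± 0.26 (SE, adjusted p = 0.491). All comparisons against wild type at P7 share its 3 arrays. In Nrf2-/- esophagus 0 of 9 were called (0.0159% of all genes) with 2 at an unadjusted p under 0.05, and in Nrf2-/-Keap1-/- esophagus 0 of 9 (0.429%) with 0 at that level.

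Foxa1 gave the firmest difference. It read 1.35, 0.77 and 0.92 in Keap1-/- esophagus, below every other array of the series, against 2.34, 2.47 and 2.31 in wild type, 1.87, 2.01 and 2.04 in Nrf2-/- and 2.29, 2.30 and 2.21 in Nrf2-/-Keap1-/-. It was lower than in wild type by 1.36 ± 0.13 (SE, adjusted p = 4.12e-05), a 2.57-fold difference, and lower than in Nrf2-/-Keap1-/- by 1.25 (-1.25, adjusted p = 8.11e-05). Across 17 alternatives it ranged from -2.03 to -0.83 and stayed called in each, and likewise in 12 refits without 1 array. None of these can part genotype from the slide, scan and software version of the Keap1-/- arrays.

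Foxe1 read 1.98, 1.69 and 2.16 in Keap1-/- esophagus against 3.19, 4.58 and 4.19 in wild type, 3.35, 4.15 and 3.91 in Nrf2-/- and 3.52, 2.87 and 3.61 in Nrf2-/-Keap1-/-, with no overlap. The differences were -2.04 ± 0.34 (SE, adjusted p = 0.00121) from wild type and -1.39 ± 0.34 (adjusted p = 0.00983) from Nrf2-/-Keap1-/-, but 0.89 and 1.06 under the processed signals and deposited ratios. The Cy3 signal of this probe was not well above background on any Keap1-/- array. With Cy5 alone, Foxe1 was lower by 2.63 (-2.63 ± 0.38, adjusted p = 0.00069). That Cy5 signal had been normalised together with Cy3, so the dim reference still enters it.

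Barx1 read 0.55, 1.04 and 1.27 in Keap1-/- esophagus against 3.24, 2.22 and 1.79 in wild type, 3.06, 2.32 and 1.85 in Nrf2-/- and 1.43, 3.09 and 2.29 in Nrf2-/-Keap1-/-. It was lower by 1.47 (-1.47 ± 0.47 SE, adjusted p = 0.0342), but higher by 0.29 under the processed signals and deposited ratios, and its Cy3 signal was likewise not well above background on the Keap1-/- arrays. Of 8 smooth muscle markers 5 were lower and 1 higher in Keap1-/- esophagus (median -0.93), and their part in the Barx1 value was not tested. With the replicate number as a block the adjusted p of Barx1 was 0.0518. The call was lost without wild-type replicate 1 (-1.05, adjusted p = 0.122) or 2 (0.0518) and without any 1 Keap1-/- array (0.0572 to 0.0945).

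Sox2 read 5.86, 5.33 and 5.44 in Keap1-/- esophagus against 5.79, 6.69 and 6.32 in wild type and 6.44, 6.47 and 6.66 in Nrf2-/-Keap1-/-, and it was lower by 0.72 and 0.98 (-0.72 ± 0.20 SE, adjusted p = 0.0201, and -0.98 ± 0.20, adjusted p = 0.0045), but with Cy5 alone the differences were 0.01 and -0.25 (adjusted p = 0.984 and 0.4). The wild-type and Keap1-/- arrays overlapped. Trp73 read 1.26, 1.85 and 1.86 against 1.90, 2.44 and 2.21 in wild type, without overlap (-0.53 ± 0.17, adjusted p = 0.0382), but 0.04 under the processed signals and deposited ratios. Klf4 read 3.50, 3.89 and 3.89 against 2.70, 3.69 and 2.41 (0.82 ± 0.28, adjusted p = 0.0436), overlapping on 1 wild-type array. Sox2 lost its call without replicate 2 or 3 of either group (adjusted p = 0.0557 to 0.0789). Trp73 lost it in 6 of 12 refits, farthest without wild-type replicate 2 (0.118), and Klf4 in 9 of 12, farthest without wild-type replicate 3 (0.151).

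Foxa2 read -1.39, -1.82 and -2.03 in Keap1-/- esophagus, the last not well above background, below all other P7 arrays. The other genotypes were scattered, at 3.54, 0.51 and -0.79 in wild type, -0.32, -0.93 and 2.53 in Nrf2-/- and -0.98, 2.69 and -0.60 in Nrf2-/-Keap1-/-, and the difference of -2.83 ± 1.25 (SE) was not called (adjusted p = 0.105). It was called with the processed signals (-4.72, adjusted p = 0.0352) and with all 27 arrays in 1 fit (adjusted p = 0.028). Between Keap1-/- and Nrf2-/-Keap1-/- esophagus 3 of 9 genes were called (33.5% of all genes), Foxa1, Foxe1 and Sox2, all lower in Keap1-/- except that Foxe1 turned with the processed signals, while Sox2 lost its call with Cy5 alone and with scale normalisation (-0.74, adjusted p = 0.0826). Both comparisons use the same Keap1-/- arrays.

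The scatter of Foxa2 and Barx1 at P7 was read beside stomach markers. The mean of 8 stomach markers (Gkn1, Gkn2, Gif, Pgc, Atp4a, Atp4b, Muc5ac and Muc6) was 3.38 on wild-type replicate 1 and 3.01 on Nrf2-/-Keap1-/- replicate 2, with all 8 well above background on each, 1.39 on wild-type replicate 2 and 1.22 on Nrf2-/- replicate 1, and between -0.07 and 0.34 on the other P7 arrays. Gif, the gastric intrinsic factor, reached 5.27 and 5.13 on the 2 highest arrays. These 2 arrays also carried the highest Foxa2 (3.54 and 2.69) and Barx1 (3.24 and 3.09) of P7. On wild-type replicate 2 and Nrf2-/- replicate 1, Foxa2 was only 0.51 and -0.32, and Barx1 was 2.22 and 3.06. Nrf2-/- replicate 3 had Foxa2 at 2.53 with stomach markers at 0.34.

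Without these 2 arrays the fall of Foxa2 from E11.5 to P7 was -5.54 ± 0.51 (SE, adjusted p = 0.000166). The Foxe1 difference in Keap1-/- esophagus was then -2.44 (adjusted p = 0.000222), while Barx1 (-1.05, adjusted p = 0.0742) and Klf4 (0.70, adjusted p = 0.153) were no longer called there and Foxa2 differed by -1.60 (adjusted p = 0.206) in place of -2.83. The change of Barx1 from P7 to adult was -1.17 (adjusted p = 0.0297). Any other part of the stomach markers in these values was not tested. Keap1-/- arrays held stomach markers at 0.01 to 0.10, and Gkn1, Gkn2, Gif and Pgc were not well above background on any of the 3.

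**Figure D4:**
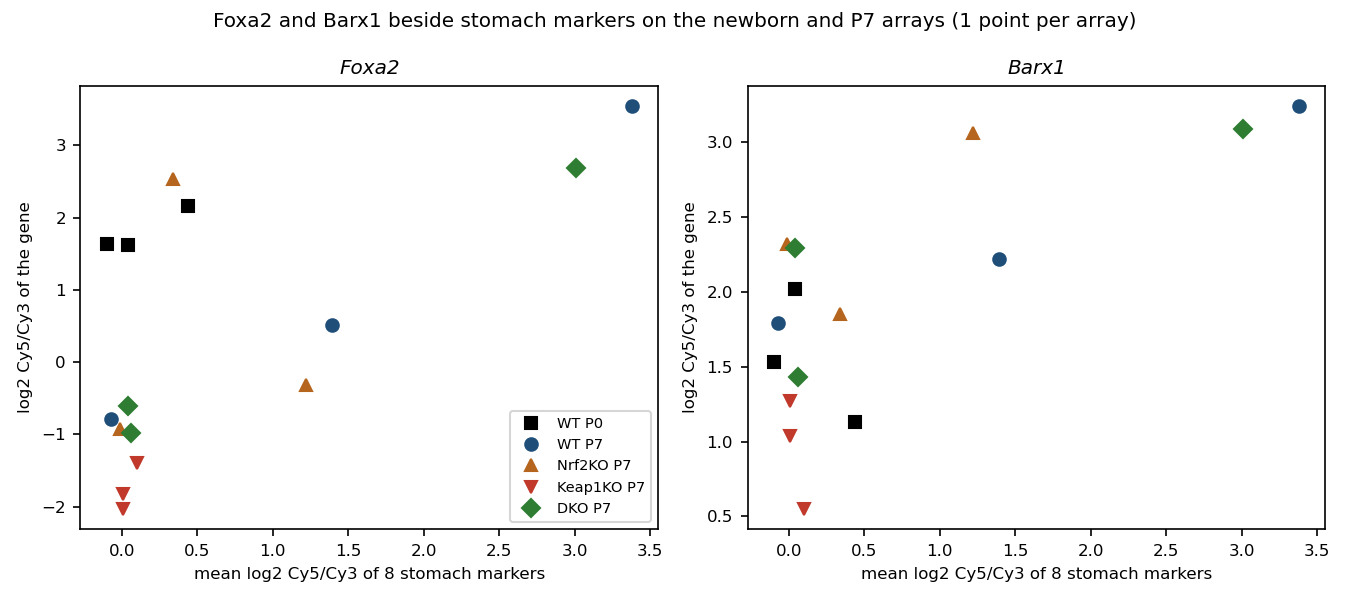
Log2 Cy5/Cy3 of Foxa2 and Barx1 (vertical axes) against the mean log2 Cy5/Cy3 of 8 stomach markers (horizontal axes) on the 15 arrays of newborn and P7 esophagus (Nrf2KO, Nrf2-/-; Keap1KO, Keap1-/-; DKO, Nrf2-/-Keap1-/-), 1 point per array. The 2 arrays with stomach markers at 3.38 and 3.01 have the highest value of both genes, and the 3 Keap1-/- arrays the lowest Foxa2.

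In the adult, loss of Nrf2 left the 8 tested genes uncalled (0.454% of all 17856 genes tested were called), with 1 at an unadjusted p under 0.05. That gene was Foxe1, at 3.76, 3.82 and 3.90 in Nrf2-/- epithelium against 3.34, 3.26 and 2.74 in wild type, higher on 3 of 3 arrays by 0.71 ± 0.17 (SE, adjusted p = 0.125). Sox2 differed by -0.35, Foxa1 by -0.31, Trp73 by 0.24 and the other 4 by at most 0.08 in size. For Trp63 that small value averaged probes that went opposite ways. From wild-type to Nrf2-/- adult, A_51_P216550 went from 7.61 to 7.05 and A_52_P17264 from 1.80 to 2.42. With the brightest probe alone, A_51_P216550, Trp63 differed by -0.56 (adjusted p = 0.155). Wild-type adult replicates 1 and 2 differed from all Nrf2-/- adult arrays in scan and software version, so genotype and scan are largely confounded. Within 1 scan, 2 Nrf2-/- arrays differed from 1 wild-type array by 1.05 for Foxe1, -0.64 for Foxa1 and -0.60 for Barx1. There Pax9 differed by 0.51, Trp73 by -0.25, Sox2 by -0.24, Klf4 by 0.06 and Trp63 by 0.01. The effect of Nrf2 loss in the adult minus that at P7 was called for 0 of 9 (0.0834% of all genes), with 1 at an unadjusted p under 0.05, Trp73 (0.68 ± 0.28 SE, adjusted p = 0.403).

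Ordered by mean level over the 9 groups, the squamous factors shared their upper end and parted at the lower. Sox2, Pax9 and Klf4 were highest in wild-type adult (7.31 ± 0.18, 7.02 ± 0.32 and 4.65 ± 0.21, SD, n = 3) and next in Nrf2-/- adult (6.95 ± 0.32, 6.94 ± 0.42 and 4.59 ± 0.63), and Trp63 and Trp73 were highest in Nrf2-/- adult (2.53 ± 0.05 and 3.16 ± 0.04) and next in wild-type adult. For Trp63 this order held for the mean of its probes, while probe A_51_P216550 was highest in wild-type adult (7.61, against 7.05 in Nrf2-/- adult). The adult groups were not called apart for any of the 5. With each spot's own local background Sox2, Trp63 and Trp73 were not higher in the adult than at P7. After the adults came P0 for Trp63, Trp73 and Pax9, and Keap1-/- for Klf4, at 3.76 ± 0.23. All but Sox2 were lowest at E11.5, while Sox2 was lowest in Keap1-/- at 5.54 ± 0.28, next to E11.5 at 5.82 ± 0.81 and within its spread, though in Cy5 alone it differed from wild-type P7 by 0.01. Foxa2 and Barx1 ran the other way, with E11.5 and E15.5 at the top, overlapping each other, and both adult groups at the bottom, for Barx1 only outside the processed signals, which put the wild-type adult above P7. Foxa1 and, outside the processed signals, Foxe1 were lowest in Keap1-/-, at 1.01 ± 0.30 and 1.94 ± 0.24. Foxa1 was highest at P0 (2.45 ± 0.14) and in the wild-type adult (2.45 ± 0.30), and Foxe1 at P7 (3.99 ± 0.72) and P0 (3.84 ± 0.16), neighbours within their spread.

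The probes of Trp63 and Trp73 were not alike. Trp63 probe A_51_P216550, at chr16:25892012-25892071 of mm9, read 5.27, 6.07, 6.92 and 6.20 on average at the 4 stages from E11.5 to P7 and 7.61 in the wild-type adult, and A_52_P17264 read 1.08, 1.17, 1.90, 1.04 and 1.80 in the same order. Probe A_52_P360130 was not well above background on any array, and A_52_P338796 on 3 adult arrays alone, so the mean of the 4 probes understates the changes of the first. Taking the brightest probe, Trp63 rose from P7 to adult by 1.41 ± 0.25 (SE, adjusted p = 0.00261), against 0.59 for the mean.

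Trp73 probe A_52_P193555 read 1.35, 2.67, 4.27 and 3.52 at the 4 stages and 4.65 in the wild-type adult, and A_52_P410636 read 0.12, 0.32, 0.75, 0.85 and 1.19. Cy3 of the first was well above background only on 1 E15.5 and 1 wild-type P7 array, so the size of its ratios is uncertain. Cy3 of Trp63 probe A_52_P17264 was well above background only on 1 E15.5 array. Both probes were higher in the adult than at P7, but with the second the gain was 0.34 (adjusted p = 0.107) and the Keap1-/- difference -0.27 (adjusted p = 0.126), neither called. The second was the brighter over both dyes together. In Cy5 alone the first was brighter, at a mean log2 of 9.45 against 8.02 at wild-type P7 and 10.34 against 8.49 in the wild-type adult. The scanner software had marked the first Trp63 probe as an outlier spot on 20 of 27 arrays, Klf4 on 15, Sox2 on 14, Pax9 on 12 and Foxa2 on 9. These spots were kept. Without them Sox2, Pax9 and Klf4 could not be tested from P7 to adult, Trp63 lost its call (0.37, adjusted p = 0.0699), and 3 genes were called in place of 7.

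**Figure D5:**
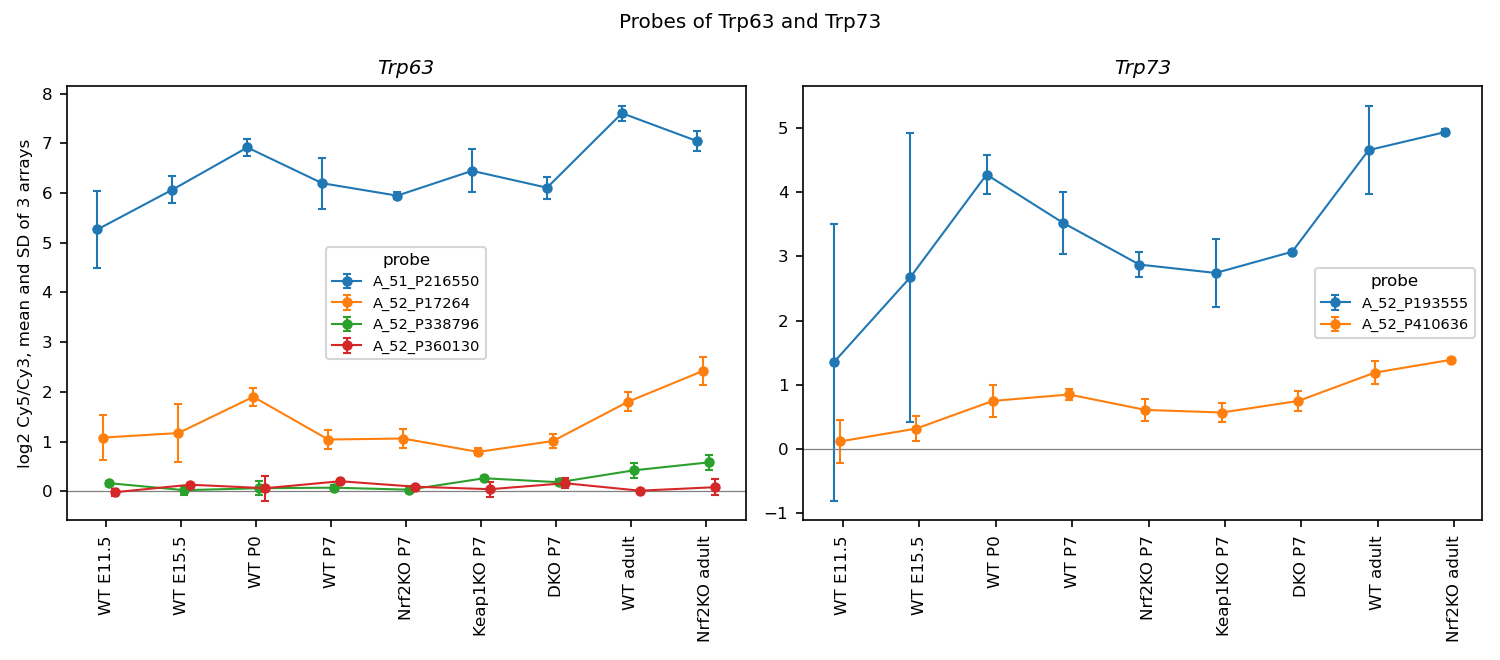
Log2 Cy5/Cy3 (vertical axes) of the 4 probes of Trp63 and the 2 probes of Trp73 in the 9 groups (Nrf2KO, Nrf2-/-; Keap1KO, Keap1-/-; DKO, Nrf2-/-Keap1-/-), as the mean and SD of 3 arrays. Trp63 probe A_51_P216550 ran from 5.27 to 7.61, while A_52_P338796 and A_52_P360130 stayed near 0.

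Across the 27 arrays several of the 10 genes varied together. Pearson's r was 0.91 for Pax9 and Trp63, 0.88 for Pax9 and Trp73, 0.87 for Trp63 and Trp73 and for Klf4 and Pax9, 0.75 for Barx1 and Foxa2, and -0.85 for Foxa2 and Klf4. These are descriptions over arrays that share groups and a reference. Of 17868 genes well above background on at least 14 arrays, those most like Pax9 included Traf3ip2 and Morn1 (0.95 each), those most like Trp63 were Morn1, Fmo2 and Dnajc6 (0.94, 0.94 and 0.93) and those most like Klf4 were Cyb561, Zbtb7a and Slc26a2 (0.97, 0.97 and 0.96). Trp73 was closest to Art4, Cpxm2 and Serpinb10-ps (0.93 each), and Foxa2 to Zfp281, Eny2 and B3gnt5 (0.94, 0.93 and 0.93). Barx1 was closest to Zfp40, Fbxl16 and Fmod (0.90 each), Foxe1 to Filip1l, Ccdc51 and Krt33a (0.89, 0.87 and 0.86), Foxa1 to Adss, Lgr4 and Med14 (0.83, 0.82 and 0.82) and Sox2 to Fgfr2, Cyfip1 and Map4k3 (0.79, 0.79 and 0.78).

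Other factors of the same kinds were read as lists, beside 30.3% of all genes called from E11.5 to P7, 43.1% from P7 to adult and 33.4% in Keap1-/- esophagus. Of the squamous transcription factors, 11 of 18 tested rose from E11.5 to P7 and 0 fell (median 1.15, against -0.01 over all genes), led by Hopx at 4.84, Zfp750 at 4.47 and Grhl1 at 4.01. From P7 to adult 10 of 19 rose and 1 fell (median 0.90, all genes 0.01), with Ovol1, which stops proliferation in differentiating epidermis, up by 2.66 and Elf3 the 1 that fell (-1.74). In Keap1-/- esophagus 3 of 18 were higher and 3 lower (median -0.16, all genes -0.02), with Cebpa at 1.43 and Ovol1 at 1.36 among the first and Elf3 at -2.58 among the second.

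Of the foregut endoderm factors, 1 of 13 was higher and 1 lower from E11.5 to P7 (Foxp2 -1.70, list median -0.08), 1 of 11 higher and 4 lower from P7 to adult (median -0.20, Isl1 -3.98) and 1 of 14 higher and 1 lower in Keap1-/- esophagus (median -0.03). Of the foregut mesenchyme factors, to which Barx1 belongs by its role, 2 of 16 rose and 6 fell from E11.5 to P7 (median -0.41, Twist1 -1.74), and 1 of 12 rose and 9 fell from P7 to adult (median -0.97, among them Tcf21 at -2.34). In Keap1-/- esophagus 1 of 14 was higher and 4 lower (median 0.00).

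Of the genes of columnar epithelium, some of which the stomach also expresses, 8 of 14 rose and 0 fell from E11.5 to P7 (median 1.59), among them Tff1 at 3.59, Krt19 at 2.90 and Krt7 at 2.46. They fell from P7 to adult in 6 of 11 and rose in 0 (median -1.71), and in Keap1-/- esophagus 8 of 14 were lower and 0 higher (median -2.10). The mean of the stomach markers was -0.03 at E11.5, 1.57 at wild-type P7, 0.18 in the wild-type adult and 0.04 in Keap1-/- esophagus, and their part in these counts was not tested. Krt19 was lower there by 6.37, Krt7 by 4.92 and Cldn3 by 4.16 (-6.37, -4.92 and -4.16, adjusted p = 5.04e-10, 1.34e-08 and 8.4e-08). Basal squamous genes rose in 10 of 17 from E11.5 to P7 and 8 of 18 from P7 to adult with 0 falling, and in Keap1-/- 1 of 17 was higher and 1 lower. Suprabasal squamous genes rose in 16 of 18 and then in 10 of 18 with 0 falling, and in Keap1-/- 3 of 18 were higher and 1 lower.

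Lists of reported targets of 3 of the factors, taken by the study from published work, were read in the same way. P63 targets rose in 46 of 54 tested from E11.5 to P7 with 0 falling (median 1.51), and in 44 of 57 with 2 falling from P7 to adult (median 1.34). In Keap1-/- esophagus, where Trp63 itself was not called, 20 of 56 were higher and 3 lower (median 0.55), 41.1% called against 33.4% of all genes. Pax9 targets, a list that holds Pax9, rose in 14 of 21 with 0 falling and in 12 of 20 with 1 falling (medians 1.86 and 1.11), and were split 4 to 4 of 19 in Keap1-/-. Sox2 targets, a list that holds Foxa2 and Foxe1, were mixed at each comparison, with 21 of 90 higher and 10 lower, 17 of 81 higher and 21 lower, and 12 of 89 higher and 23 lower. Their called shares, 34.4%, 46.9% and 39.3%, were near those of all genes. Of these targets 0 were called in Nrf2-/- esophagus at P7, where 0.0159% of all genes were. In the Nrf2-/- adult, where 0.454% of all genes were called, 1 P63 target, 0 Pax9 targets and 2 Sox2 targets were called, all lower. These counts are too small to read further.

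Markers of neighbouring tissues were read beside these factors. Of the thyroid markers 1 of 4 tested rose from E11.5 to P7 (Duoxa2, 4.97), while Pax8 was not well above background. Of the thymus and parathyroid markers 1 of 5 rose (Foxn1, 0.81) and 0 fell, of the tracheal cartilage markers 0 of 7 rose and 3 fell, of the respiratory and lung markers 0 of 9 and of the stomach markers 0 of 6 were called. The stomach markers were not level, though. Their mean was -0.03 at E11.5 and 1.57 at wild-type P7, where single arrays ran from -0.07 to 3.38. From P7 to adult 0 of 3 thyroid markers rose and 2 fell (Duoxa2, -4.99, and Hhex, -0.79), 1 of 4 thymus and parathyroid markers rose, 1 of 5 cartilage markers rose and 3 fell, 1 of 6 respiratory markers rose and 1 of 5 stomach markers rose. In Keap1-/- esophagus 1 of 4 thyroid markers was lower (Duoxa2, -5.16), 0 of 5 thymus and parathyroid markers and 0 of 7 stomach markers were called, 1 of 6 cartilage markers was higher and 1 lower, and 1 of 8 respiratory markers was higher. Of 8 general epithelial markers 8 rose from E11.5 to P7, 2 rose and 2 fell from P7 to adult, and 2 were higher and 4 lower in Keap1-/-. Of the 8 esophageal epithelium markers 6, 3 and 1 were higher and 0, 1 and 1 lower in these comparisons. Striated muscle markers rose in 10 of 10 from E11.5 to P7, and 3 were higher and 1 lower in Keap1-/-. For enteric neurons and glia 1 of 7 rose and 2 fell from E11.5 to P7 and 0 of 6 were called in Keap1-/-.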

How the data were processed

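Each of 27 Agilent 2-colour arrays held RNA of 1 esophagus in Cy5 and Universal Mouse Reference RNA in Cy3, with no swapped dyes. As deposited, the scanner tables give spot mean and local background intensities before subtraction, quality marks, and processed signal intensities that the authors' scanner software had background-subtracted, detrended and dye-normalised. The deposited log10 ratios, Cy5 over Cy3, come from those processed signals, both per spot and, in the series value table, averaged per probe. The labels name Agilent Feature Extraction 9.1, whereas the file headers name other releases of it.

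From the spot intensities, background was corrected with normexp (offset 50), leaving out spots whose local background exceeded 5 times the array median, and ratios were loess-normalised within arrays (limma 3.58.1, R 4.3.3). Spots marked as outliers were kept. Spots were averaged per probe and probes per gene, under the names in the newer tables plus older names of the 10 genes. A gene was tested if 3 or more arrays of the fit had 1 of its probes well above background in Cy5 and each group had 2 or 3 values, and tests were made with limma's moderated test and Benjamini-Hochberg adjustment over all genes tested. The study's SAM was replaced by limma. Fits covered the wild-type stages, P7 with wild-type adult, the 4 genotypes at P7, the adults, and Nrf2 loss at both ages. Samples were grouped by their labels, and replicate numbers are those of the titles. The number of arrays limits the precision.

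The 10 genes, the lists (squamous, foregut endoderm and foregut mesenchyme transcription factors, basal, suprabasal and columnar genes, reported P63, Pax9 and Sox2 targets, and cell type markers) and the tests were chosen with earlier results of these data known. All 10 genes were described, from a list at most the 3 called genes of largest change were named, and for likeness the 3 genes of highest Pearson correlation. Single genes outside this rule (Elf3 from P7 to adult, respiratory and thyroid markers) were named after their values were seen. Alternatives covered background, normalisation, filters, outlier marks, probe choice, the arrays in the fit, blocks and each array left out in turn. Leaving out the conflicting embryo arrays was planned, except for P0 to P7, and that fit, leaving out the 2 arrays with the highest stomach markers and the Cy5 channel alone were added after seeing the data. Cy5 alone means the Cy5 signal after loess with Cy3 within arrays and quantile normalisation of mean intensity between arrays. It is therefore not free of the reference. Deviations of same-numbered arrays from their group means correlated between -0.45 and 0.64. In the wild-type stages r was over 0.1 in 9 of 18 same-numbered pairs and in 4 of 36 other pairs. A link between same-numbered arrays is therefore not excluded, and the replicate number was also fitted as a block. Figures were drawn with matplotlib 3.10.9. Results for a few genes that the naming rule would have listed are not reported here.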

Additional observations from a re-analysis of the deposited data

How the results depend on the processing

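For the 20 called changes of single genes, 16 to 18 alternatives each gave 340 values, of which 276 kept direction and call, 50 lost the call and 14 changed sign; with each array left out in turn these were 151, 44 and 0 of 195. The cause was not tested. Foxa1 in Keap1-/- esophagus, Foxa2 from E11.5 to P7 and Klf4 from P7 to adult stayed called under all that could be run for them. The signs that turned were, with processed signals or deposited ratios, Barx1 (0.29), Foxe1 (0.89) and Trp73 (0.04) in Keap1-/- against wild type, Foxe1 against Nrf2-/-Keap1-/- (1.06) and Barx1 from P7 to adult (0.3). With each spot's own local background they were Sox2 (-1.44), Trp63 (-0.18) and Trp73 (-0.83) from P7 to adult, and with Cy5 alone Sox2 in Keap1-/- (0.01). The median change of all genes went from 0.01 to 0.13 from P7 to adult with processed signals, and with median centring from -0.02 to 0.11 in Keap1-/- and from 0.02 to 0.40 in adult Nrf2-/-.

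Of the 10 genes, the F-test over stages called 2 in the reported fit, 1 with own local background, processed signals, deposited ratios or median centring, 4 with the brightest probe, 8 with all 27 arrays in 1 fit and 7 without the conflicting arrays; leaving out each array gave 2 to 6, the high without the array labelled E11.5 replicate 3. E11.5 to E15.5 gave 5 in place of 0 without the conflicting arrays. E15.5 to P0 gave 2 in place of 1 with Cy5 alone or only the compared groups, 3 with all arrays, and 0 to 3 leaving out each array, the low without the array labelled E15.5 replicate 1 or any P0 array. E11.5 to P7 gave 1 in place of 3 with own local background or median centring, 6 with all arrays, 7 without the conflicting arrays, and 2 to 7 leaving out each array. P7 to adult gave 3 in place of 7 without outlier-marked spots, with median centring or with scale normalisation, 2 with own local background, and 4 to 6 leaving out each array, the low without adult replicate 2. Keap1-/- against wild type gave 3 in place of 6 with processed signals, deposited ratios, Cy5 alone or only the compared groups, and 3 to 6 leaving out each array, the low without replicate 2 or 3 of either group. Against Nrf2-/-Keap1-/- it gave 5 in place of 3 with median centring, only the compared groups or the slide as a random block, and 3 to 5 leaving out each array, the high without wild-type replicate 3. The other comparisons stayed at 0.

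With the replicate number as a block, E15.5 to P0 gave 2 calls, adding Barx1 (adjusted p = 0.0117), Foxe1 from E11.5 to P7 had an adjusted p of 0.0468, Klf4 in Keap1-/- against Nrf2-/-Keap1-/- 0.0486, and Barx1 in Keap1-/- against wild type lost its call (0.0518). The F-test over stages then called Barx1 too (0.0101). No other call on these genes changed. Same-numbered arrays were not all alike, and the sample titles name no pairing. Scan and software version as random blocks were not run for the wild-type stages (1 batch) and P7 (each group in 1 batch).

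Over all genes, calls with own local background against the reported fit were 3663 against 5891 (F-test), 1713 against 3875 (E15.5 to P0), 241 against 476 (P0 to P7), 4157 against 7681 (P7 to adult), 1646 against 81 (adult Nrf2-/-) and 1096 against 16 (its difference from P7). P0 to P7 gave 225 without the 2 stomach-marker arrays and 1107 with only the compared groups, P7 to adult gave 4269 with median centring, Nrf2-/- at P7 9 in place of 3 with the slide as a random block, and Nrf2-/-Keap1-/- 3 to 492 in place of 81. Leaving out each array gave 200 to 582 from P0 to P7, 2 to 8 in Nrf2-/- and 5 to 270 in Nrf2-/-Keap1-/- at P7, 14 to 186 in adult Nrf2-/- and 3 to 42 for its difference from P7. Of the calls in Keap1-/-, 46.1% were higher, and 65.9% with median centring; from E11.5 to P7 55.7% and 36.2%, from E15.5 to P0 57.1% and 40.2%, and from P7 to adult 46.3% and, with own local background, 27.2%. Dim Cy3 on the Keap1-/- arrays limits Foxe1 and Barx1. It also limits Trp73 through probe A_52_P193555 and Trp63 through A_52_P17264, whose Cy3 was not well above background on any of them.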
